A study of Homo sapiens with 4 samples.

Results

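Cadherins and the transcription factors of the epithelial-mesenchymal transition (EMT) were examined in 786-O cells with and without added PRDM16. The group held 10 named genes, chosen by symbol: the cadherins CDH1, CDH2, CDH6 and CDH16, the adhesion molecule gene EPCAM, and the EMT factors ZEB1, ZEB2, SNAI1, SNAI2 and TWIST1. All 10 had a row among the 56753 loci of the deposited table, 9 of them as the only name of their locus. The tenth, CDH6, shared its locus with DUX4L51, a pseudogene whose 1109 bases all lie in annotated CDH6 exons, so its value sums both names.

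786-O is an established human cell line of clear cell kidney cancer without functional VHL. Total RNA had been sequenced from cells stably transduced with either a control vector or PRDM16 lentivirus, 2 libraries of each, to see what PRDM16, a zinc finger regulator of transcription, does to the transcriptome. The promoter of the vector, and whether the cells were a pool or 1 clone, are not stated in the labels. Nor is it stated that replicates came from separate cultures, so the spread behind each p-value is that between libraries and may be technical.

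Classical cadherins join neighbouring cells by binding like molecules across the gap between them and hold to the actin cytoskeleton through catenins. Most epithelia rely on E-cadherin, encoded by CDH1. The zinc finger proteins of the ZEB and SNAI families and the helix-loop-helix protein TWIST1 bind E-boxes and repress CDH1, and loss of CDH1 with gain of N-cadherin, encoded by CDH2, is the usual mark of EMT. The kidney differs from other epithelia in that proximal tubule cells, from which clear cell carcinoma is thought to arise, carry N-cadherin and cadherin-6 in the normal state. Members of the miR-200 family repress ZEB1 and ZEB2.

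The mature miR-200 sequences are shown because their shared seeds define the sites through which ZEB1 and ZEB2 transcripts are recognised. They are from RefSeq (GRCh38.p14), 5′ to 3′, with the seed (bases 2 to 8) in capitals.
hsa-miR-141-3p: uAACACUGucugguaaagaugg
hsa-miR-200a-3p: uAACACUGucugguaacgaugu
hsa-miR-200b-3p: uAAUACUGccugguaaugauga
hsa-miR-200c-3p: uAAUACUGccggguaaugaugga
hsa-miR-429: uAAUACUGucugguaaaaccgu
The first 2 share 1 seed and the other 3 share another. The deposited table gives the hairpin loci and no mature miRNA. MIR200A, MIR200C, MIR141 and MIR429 were listed at 0 in all 4 libraries, and MIR200B was listed at 16.2 FPKM in PRDM16 replicate 1 and at 0 in the other 3.

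The promoter window of ZEB1 is shown because it holds an E-box, the motif these factors bind, and lies wholly inside exons of ZEB1-AS1, a gene on the opposite strand. Downstream of it, both genes are annotated from 31318495 to 31320447 on chromosome 10, where their reads cannot be told apart unless strand was kept, which is not stated. RefSeq windows were found for 3 of the 10 genes, CDH2, ZEB1 and ZEB2. The 250 bases before the first ZEB1 start, on the plus strand of GRCh38.p14 at chr10:31318167-31318416, hold no annotated ZEB1 exon, and 250 of 250 bases are ZEB1-AS1 exon. The capitals mark the E-box CAGGTG.
ZEB1 upstream window: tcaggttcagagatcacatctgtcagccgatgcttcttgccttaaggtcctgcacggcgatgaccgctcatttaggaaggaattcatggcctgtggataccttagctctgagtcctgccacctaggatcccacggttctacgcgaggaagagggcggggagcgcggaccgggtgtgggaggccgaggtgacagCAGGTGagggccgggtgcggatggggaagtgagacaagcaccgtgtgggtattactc
The motif, read as CAGGTG or as CACCTG on the other strand, was found in 2 of 7 upstream windows of ZEB1, in 0 of 2 of CDH2 and in 0 of 1 of ZEB2. It was present in 17.5% of all 35116 RefSeq windows of the same length. A match is a run of letters and not a measured binding site.

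The label of the cells was checked first. PRDM16 itself was at 0.0157 and 0.234 FPKM (fragments per kilobase of transcript, adjusted for library size) in the control vector libraries and at 1226 and 1146 FPKM in the PRDM16 libraries. The kidney lineage factor PAX8 was at 169 to 208 FPKM and PAX2 at 4.62 to 5.37 FPKM, while LRP2, which encodes megalin of the proximal tubule, was listed at 0 in 3 libraries and at 0.00428 FPKM in PRDM16 replicate 2. Of 17 markers of leukocytes, endothelium and fibroblasts measured at a locus of their own, 12 were under 1 FPKM in every library. The relative depth was estimated from the most frequent ratio of low values between control vector replicate 1 and each other library. It ran from 1 to 1.39, with control vector replicate 2 the deepest. That ratio was held by 508 of 5211 low loci for control vector replicate 2 and by 252 of 5076 for PRDM16 replicate 2. Control vector replicate 2 was the highest or the lowest of the 4 libraries at 73.4% of tested loci. Since each locus has both a highest and a lowest library, part of this share would arise without any difference between libraries. Control vector replicates also stood farther apart, with a median absolute log2 gap of 0.19, against 0.098 for the PRDM16 pair.

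No gene of the group was called by the test over all loci. In bulk RNA, fewer cells with a transcript and less of it per cell cannot be told apart. Of the 10 genes, 8 reached a mean of 1 FPKM and were tested, and 0 passed limma at an adjusted p under 0.05, beside 0.0226% of the 13246 loci tested. At an unadjusted p under 0.05 there were 2, CDH16 and EPCAM, beside 6.12% of all tested loci. Both PRDM16 libraries lay below both control vector libraries for CDH2, CDH16, EPCAM, ZEB2 and SNAI2, which is 5 of 8, beside 20.3% of all tested loci. They lay above for 0 of 8, beside 21.1%. The remaining 3, CDH6, ZEB1 and SNAI1, overlapped between the groups. The mean log2 change was below 0 for 6 of 8, beside 49.3% of all tested loci, and above 0 for 2 of 8, beside 50.7%. CDH16 passed the filter on low values through its control vector libraries, so these counts describe the tested genes only. The median log2 change of the 8 was -0.21, against 0.00399 over all tested loci.

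**Figure D1:**
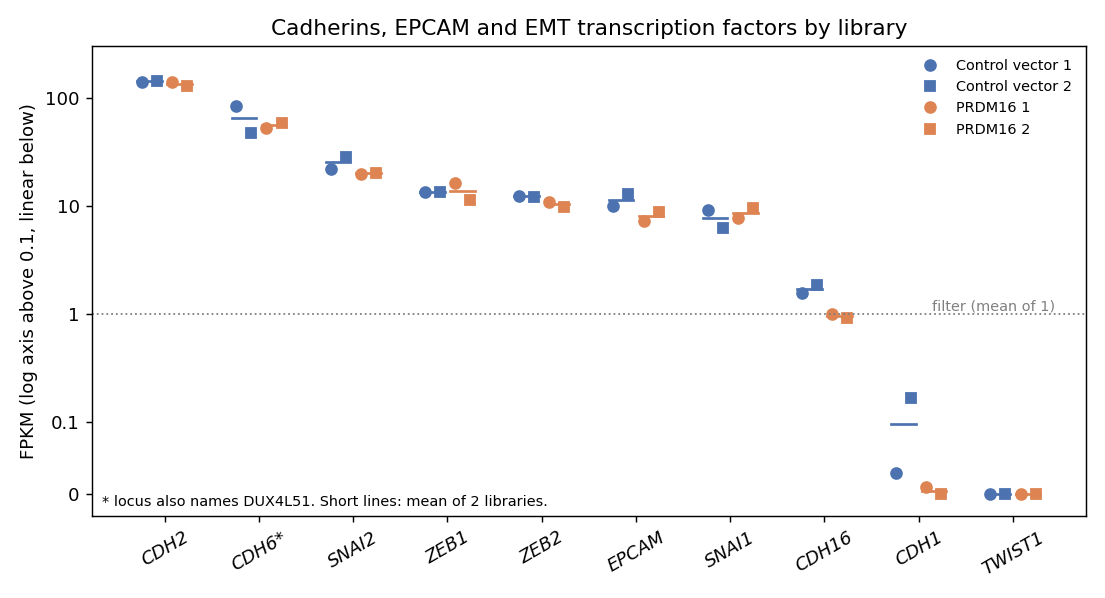
FPKM of the 10 genes (x axis, ordered by mean) in each of the 4 libraries (y axis, logarithmic above 0.1 and linear below), with circles for replicate 1, squares for replicate 2, blue for control vector and orange for PRDM16. Short lines are means of 2 libraries and the dotted line is the filter at a mean of 1 FPKM. CDH2 stood highest at 129 to 143 FPKM, CDH1 reached at most 0.166 FPKM, and TWIST1 was listed at 0.

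The levels gave a steady order across libraries. FPKM are per length, so they may be compared between genes. The means over 4 libraries ran from CDH2 (137 FPKM) through CDH6 (60.3), SNAI2 (22.6), ZEB1 (13.5), ZEB2 (11.3), EPCAM (9.71), SNAI1 (8.15) and CDH16 (1.34) to CDH1 (0.0514) and TWIST1 (listed at 0). The ranges of CDH2, CDH6 and SNAI2 did not meet those of their neighbours in that order. ZEB1 and ZEB2 overlapped in range although ZEB1 was the higher in 4 of 4 libraries. ZEB2 exceeded EPCAM in 3 of 4 and EPCAM exceeded SNAI1 in 2 of 4, so the order among these 3 was not fixed beyond their spread. Between SNAI1 and CDH16 the ranges were apart again.

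CDH2, which encodes N-cadherin, was the most abundant of the 10 and ranked 774 among all loci by mean level. It was measured at 139 and 143 FPKM in the control vector libraries and at 138 and 129 FPKM in the PRDM16 libraries. Both PRDM16 values lay lower, but control vector replicate 1 and PRDM16 replicate 1 were almost equal. The means were 141 ± 2.79 and 133 ± 6.48 FPKM (SD, n = 2 each). The log2 change of FPKM + 1 was -0.08 (SE 0.09, 95% interval -0.31 to 0.15, limma adjusted p = 0.745), and it ran from -0.13 without PRDM16 replicate 1 to -0.033 without PRDM16 replicate 2. The gene lies on chromosome 18 at 27950966 to 28177446, minus strand (GRCh38, GENCODE 29).

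CDH6, which encodes cadherin-6 (K-cadherin), a type II cadherin of the developing and adult proximal tubule, was the second most abundant. The locus naming CDH6 and DUX4L51 was at 84.2 and 46.5 FPKM in control vector libraries and 52.0 and 58.4 FPKM with PRDM16. The control vector replicates stood farther apart than the groups did, at the highest and the lowest of the 4 values. The log2 change was -0.18 (SE 0.29, 95% interval -0.96 to 0.60, limma adjusted p = 0.830), but 0.24 without control vector replicate 1 and -0.60 when control vector replicate 2 was left out. The gene spans 31193750 to 31329146 on chromosome 5, plus strand.

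CDH16, which encodes the kidney-specific cadherin (Ksp-cadherin) of tubule epithelium, was low. Its values were 1.58 and 1.86 FPKM in the control vector against 0.997 and 0.926 FPKM with PRDM16. The groups did not overlap, and the replicates lay 0.15 and 0.05 apart in log2 of FPKM + 1. The added 1 narrows these gaps at so low a level. The control vector mean was 1.79-fold the PRDM16 mean. The log2 change was -0.47 (SE 0.16, 95% interval -0.88 to -0.06, limma adjusted p = 0.689), which understates the ratio because the pseudocount of 1 is close to the level itself, and it was -0.77 with a pseudocount of 0.1. CDH16 lies on chromosome 16 at 66908122 to 66918984, minus strand, and no other gene is annotated across it.

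CDH1, which encodes E-cadherin, was barely measured. It was at 0.0295 and 0.166 FPKM in the control vector libraries, at 0.0102 FPKM in PRDM16 replicate 1, and listed at 0 in PRDM16 replicate 2. Both PRDM16 values lay below both control vector values, and the highest was in the deepest library. No fold change is given at this level, and the gene was not tested. CDH1 lies on chromosome 16 at 68737225 to 68835548, plus strand.

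The set of cadherins was placed beside these 4. The table held loci for 23 genes with a CDH symbol, of which 4 had a mean of at least 10 FPKM, 3 had a mean of 1 to 10 FPKM and 16 were below 1 FPKM. The 4 abundant ones were CDH2, CDH13 (T-cadherin, which has a lipid anchor in place of a cytoplasmic tail), CDH6 and CDH11 (a type II cadherin of mesenchyme), and together they made up 97.0% to 97.4% of the summed cadherin FPKM in every library. CDH2 alone made up 40.6% and 41.6% in the control vector and 43.2% and 43.3% with PRDM16. The share of CDH6 ran from 13.5% to 24.6% and that of CDH1 from 0% to 0.0483%.

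**Figure D2:**
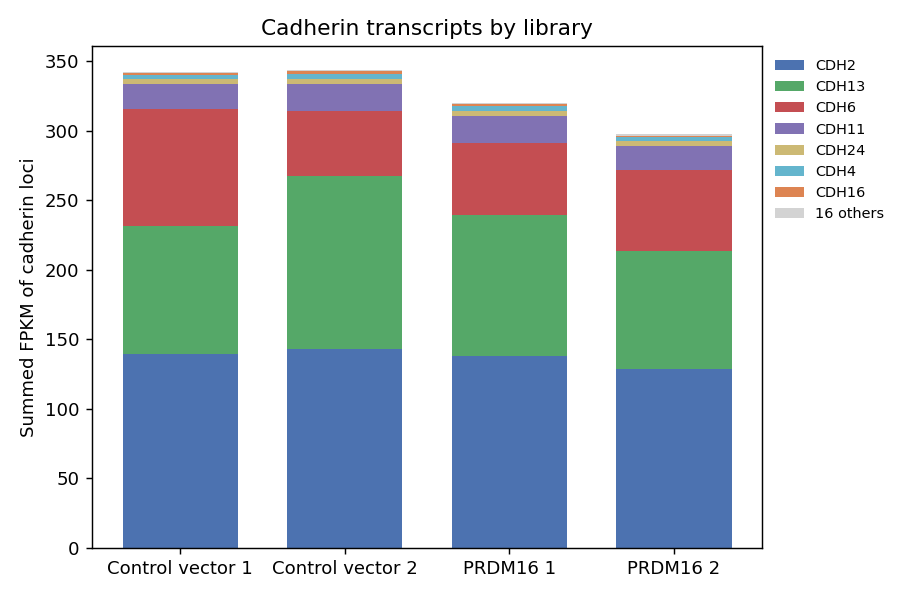
Summed FPKM of the 23 loci naming a CDH gene (y axis) in each library (x axis), divided by gene, where CDH6 and CDH11 loci also carry other names. The control vector bars reach 343 and 344 FPKM and the PRDM16 bars 320 and 298 FPKM, with CDH2, CDH13, CDH6 and CDH11 as the 4 large blocks.

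The summed cadherin FPKM was 343 and 344 in the control vector and 320 and 298 with PRDM16, a log2 ratio of the means of -0.15. Both PRDM16 sums were lower, but this rested on the CDH6 locus, at 84.2 and 46.5 against 52.0 and 58.4 FPKM. Without the loci of several names, those of CDH6 and CDH11, the sums were 240.2 and 278 FPKM against 248 and 222 FPKM. The groups then overlapped. Outside the 4 cadherins of the group, 5 further loci of a single cadherin name were tested and 0 were called. Of these, 4 had a lower and 1 a higher mean, with a median log2 change of -0.16, which was -0.089 without control vector replicate 2 and -0.080 without PRDM16 replicate 2. CDH13 was at 92.0 and 124 against 101 and 84.9 FPKM, and CDH4 (R-cadherin) was at 2.56 and 3.85 against 3.996 and 2.82 FPKM, both overlapping between the groups. CDH24 was at 4.01 and 3.79 against 3.75 and 3.67 FPKM, lower in both PRDM16 libraries by a small margin. The cadherin-related genes CDHR1 (1.98 and 3.25 against 1.66 and 1.57 FPKM) and CDHR3 (1.25 and 1.24 against 1.11 and 0.906 FPKM) were also lower in both. CDH11, in a locus that names a clone as well, was at 18.2 and 19.6 against 19.2 and 16.9 FPKM.

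EPCAM encodes an adhesion molecule of epithelia that is cut at the membrane to release a signalling fragment. It was at 10.004 and 12.8 FPKM in control vector libraries and at 7.27 and 8.76 FPKM with PRDM16. Both PRDM16 values lay below both control vector values, and the replicates of each group stood 0.33 and 0.24 apart in log2 of FPKM + 1. The control vector mean was 1.42-fold the PRDM16 mean. The log2 change was -0.45 (SE 0.16, 95% interval -0.88 to -0.03, limma adjusted p = 0.689), and leaving out control vector replicate 2 gave -0.29. EPCAM spans 47345158 to 47387601 on chromosome 2, plus strand. Within each library CDH2 was 13.9 and 11.2 times EPCAM in the control vector and 19.0 and 14.7 times EPCAM with PRDM16.

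ZEB1 and ZEB2 encode repressors of CDH1 with zinc fingers and a homeodomain. ZEB1 was at 13.3 and 13.4 FPKM in control vector libraries and at 16.2 and 11.3 FPKM with PRDM16. The PRDM16 replicates lay on either side of both control vector values, 0.49 apart in log2 of FPKM + 1. The log2 change was 0.02 (SE 0.18, 95% interval -0.47 to 0.50, limma adjusted p = 0.975), and it was -0.23 without PRDM16 replicate 1 and 0.26 without PRDM16 replicate 2. ZEB1 lies on chromosome 10 at 31318495 to 31529814, plus strand. ZEB1-AS1, whose exons cover the upstream window printed above, was at 3.85 and 4.798 against 5.62 and 3.92 FPKM, with its highest value in the same library as ZEB1.

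ZEB2 was at 12.4 and 12.1 FPKM in control vector libraries and 10.9 and 9.71 FPKM with PRDM16. The groups did not overlap, and the control vector replicates differed by 0.03 in log2 of FPKM + 1. The log2 change was -0.23 (SE 0.10, 95% interval -0.50 to 0.04, limma adjusted p = 0.689), and it was -0.15 without PRDM16 replicate 2. ZEB2 lies on chromosome 2 at 144364364 to 144524583, minus strand. The ratio of ZEB1 to ZEB2 was 1.07 and 1.11 in the control vector and 1.48 and 1.16 with PRDM16.

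SNAI1 (Snail) and SNAI2 (Slug) encode related zinc finger repressors. SNAI2 was at 21.98 and 28.5 FPKM in control vector libraries and at 19.8 and 20.0 FPKM with PRDM16, the most abundant EMT factor of the 5 in each library. Its PRDM16 libraries lay close together and below both control vector libraries. The log2 change was -0.32 (SE 0.15, 95% interval -0.70 to 0.07, limma adjusted p = 0.689), and leaving out control vector replicate 2 gave -0.14 and leaving out control vector replicate 1 gave -0.50. SNAI2 lies on chromosome 8 at 48917604 to 48921740, minus strand.

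SNAI1 was at 9.05 and 6.26 FPKM in control vector libraries and 7.78 and 9.49 FPKM with PRDM16. Control vector replicate 2 was the lowest of the 4 here and the highest for SNAI2, so the ratio of SNAI2 to SNAI1 was 4.54 in that library and 2.11 to 2.54 in the other 3. The log2 change of SNAI1 was 0.17 (SE 0.20, 95% interval -0.36 to 0.69, limma adjusted p = 0.765), and leaving out control vector replicate 2 gave -0.066. SNAI1 lies on chromosome 20 at 49982999 to 49988886, plus strand. TWIST1 (chromosome 7, 19020991 to 19117672, minus strand) was listed at 0 in all 4 libraries. Its relative TWIST2 was listed at 0 in each as well. Since 11 of 11 loci naming mitochondrially encoded genes were also listed at 0, a 0 in this table may be a failed estimate.

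**Figure D3:**
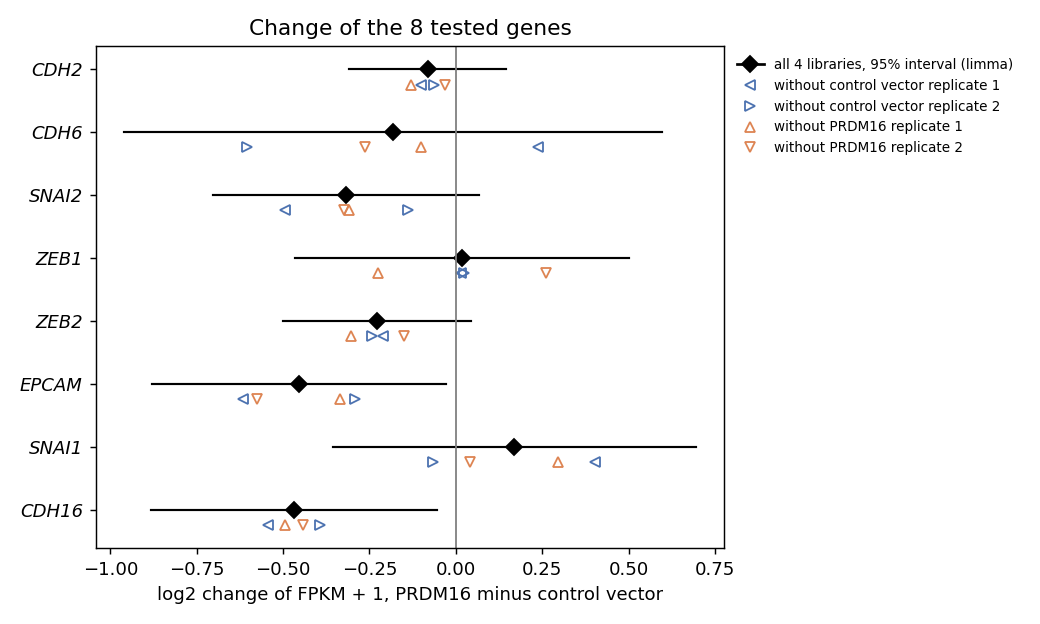
Log2 change of FPKM + 1, PRDM16 minus control vector (x axis), for the 8 tested genes (y axis, by mean level), with diamonds for all 4 libraries, bars for the 95% limma interval and open triangles for the change with 1 library left out. The triangles of CDH6, ZEB1 and SNAI1 lie on both sides of 0, while those of CDH2, CDH16, EPCAM, ZEB2 and SNAI2 lie below it. For genes lower in both PRDM16 libraries, leaving out 1 library could not bring a triangle above 0.

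The other genes of the adhesion and EMT pathways were read from lists of loci with a single name, and 0 members of any list were called by limma in either direction. Catenins and junction linkers, the cytoplasmic side of the cadherin complex and its nectin neighbours, had 10 of 15 tested, with 6 higher and 4 lower means and a median log2 change of 0.06. That median was 0.17 without control vector replicate 1, -0.015 without control vector replicate 2 and -0.024 without PRDM16 replicate 1. Beta-catenin (CTNNB1) was at 147 and 119.9 against 142 and 153 FPKM, and alpha-catenin (CTNNA1) at 258 and 220 against 255 and 259.5 FPKM, each with control vector replicate 2 as the lowest library. The 3 members with the smallest p were JUP (plakoglobin, 1.45 and 1.80 against 1.28 and 1.01 FPKM), NECTIN1 (named PVRL1 in the table, 15.2 and 12.8 against 16.4 and 15.7 FPKM) and the actin linker gene VCL (104 and 86.3 against 108 and 108 FPKM), with a limma adjusted p of 0.689 each.

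Proteases and other genes that process cadherins and EPCAM had 12 of 15 tested, with 2 higher and 10 lower means and a median log2 change of -0.14, which was -0.08 without control vector replicate 2. At an unadjusted p under 0.05 there were 2 of 12, beside 6.12% of all tested loci. APH1B, a subunit of gamma-secretase, was at 8.74 and 9.93 against 6.61 and 5.66 FPKM, which is a log2 change of -0.54 (SE 0.13, limma adjusted p = 0.689). PCSK5, a proprotein convertase, was at 9.98 and 7.25 against 5.47 and 5.54 FPKM, with a log2 change of -0.55. NCSTN, which encodes the gamma-secretase subunit nicastrin, was at 76.5 and 77.0 against 69.3 and 62.1 FPKM. All 3, picked for the smallest p, were lower in both PRDM16 libraries. Over the whole list, 4 of 12 were lower in both and 2 of 12 higher in both, beside 20.3% and 21.1% of all tested loci.

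Epithelial genes, several of which ZEB and SNAI factors repress, had 11 of 35 tested. Of the others, 15 were below the filter and 9 lay in loci with several names. The tested ones had 3 higher and 8 lower means and a median log2 change of -0.07, which was -0.20 without control vector replicate 1. Lower in both PRDM16 libraries were 3 of 11, and 1 of 11 was higher in both, beside 20.3% and 21.1% of all tested loci. The higher one was the keratin gene KRT8, at 202 and 169 against 208 and 204 FPKM. KRT19, another keratin gene, was at 217 and 251 against 230 and 208 FPKM, with overlapping groups. Among those below the filter were the splicing regulator ESRP1 (0.0146 to 0.157 FPKM) and the tight junction gene OCLN (0.00454 to 0.0123 FPKM). SPINT1, a protease inhibitor gene of epithelia, was at 4.72 and 6.25 against 3.75 and 3.79 FPKM, and the polarity gene CRB3 was at 8.32 and 7.60 against 6.68 and 4.57 FPKM. The plakophilin gene PKP3 was at 6.17 and 9.64 against 6.38 and 5.74 FPKM, with overlapping groups. Limma adjusted p was 0.689 for SPINT1 and CRB3 and 0.690 for PKP3.

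Mesenchymal genes had 12 of 15 tested, with 1 higher and 11 lower means and a median log2 change of -0.14, and 6 of the 12 were lower in both PRDM16 libraries and 0 higher in both, beside 20.3% and 21.1% of all tested loci. The fibronectin gene FN1 was at 1587 and 2176 against 1574 and 1466 FPKM, with a log2 change of -0.29 (limma adjusted p = 0.689), with control vector replicate 1 and PRDM16 replicate 1 nearly equal. TNC and ACTA2, a matrix glycoprotein gene and a smooth muscle actin gene, had log2 changes of -0.36 and -0.33 (limma adjusted p = 0.689 each). The median of this list was -0.33 without control vector replicate 1 and -0.050 when control vector replicate 2 was left out.

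Other EMT transcription factors had 13 of 20 tested, with 8 higher and 5 lower means and a median log2 change of 0.04. SOX4 was at 14.2 and 16.7 against 11.4 and 12.3 FPKM, lower in both PRDM16 libraries. SOX9 was at 6.76 and 4.17 against 7.52 and 9.64 FPKM and the forkhead gene FOXC2 at 2.74 and 2.56 against 3.28 and 3.78 FPKM, both higher in both. The median of the list was 0.17 without control vector replicate 1 and -0.12 when control vector replicate 2 was left out. Cofactors of the EMT factors and the ligases that degrade them had 16 of 19 tested, with 9 higher and 7 lower means and a median log2 change of 0.02. That median turned to -0.010 without control vector replicate 1, to -0.040 without control vector replicate 2 and to -0.065 without PRDM16 replicate 1. FBXL14 and FBXL5, whose products mark SNAI proteins for degradation, were at 7.19 and 8.57 against 6.54 and 6.35 FPKM and at 26.5 and 23.3 against 21.6 and 21.9 FPKM. The deacetylase gene HDAC1 was at 133 and 107 against 132 and 147 FPKM.

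**Figure D4:**
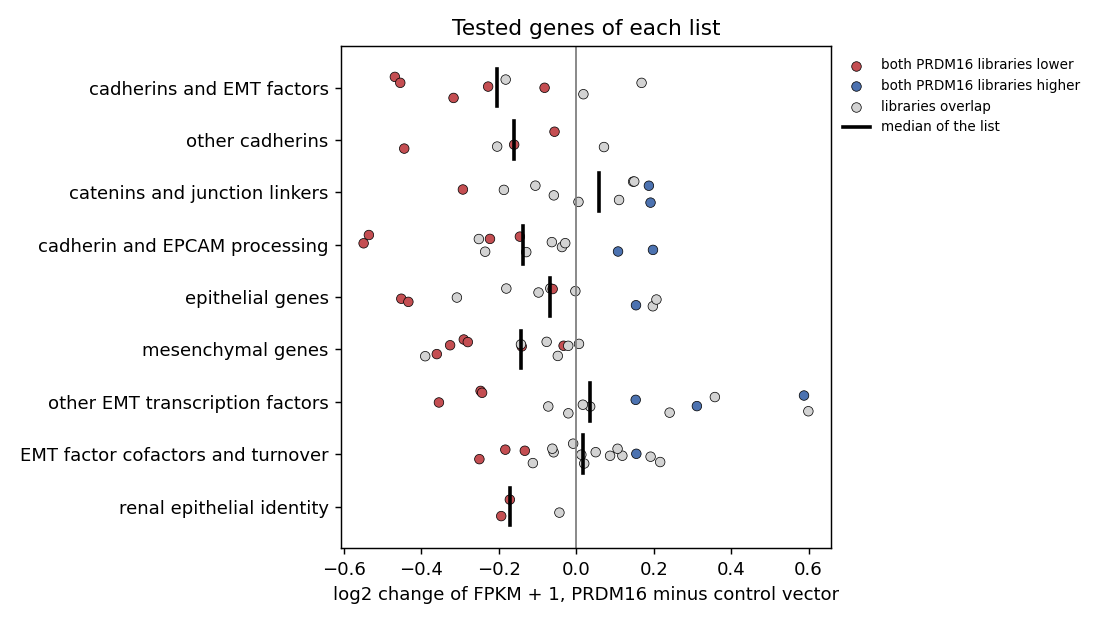
Log2 change of FPKM + 1, PRDM16 minus control vector (x axis), for each tested gene (point) of 9 lists (y axis), in red or blue where both PRDM16 libraries lay below or above both control vector libraries and in grey where they overlapped, with a black line at each median. Points of every list with more than 3 tested genes lie on both sides of 0, and the medians run from -0.21 for the cadherins and EMT factors to 0.06 for catenins and junction linkers.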

How the data were processed

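The deposited table gives 1 value per locus and library. The values were taken as the authors' FPKM, a unit the file header does not name. The submitters' processing notes list hg38, TopHat2 2.1.0, Cufflinks 2.2.1, Cuffdiff and Trim Galore. The authors' annotation and strand setting are not given in the sources used. Absolute depth is unknown, so no counting interval is given. Loci with a mean of at least 1 FPKM were tested with limma 3.58.1 in R 4.3.3 on log2(FPKM + 1), computed here from the deposited values, with a variance trend and two-sided Benjamini-Hochberg adjusted p over 13246 loci. A permutation test of 2 against 2 cannot go below p = 0.333. Older symbols were matched through RefSeq. The test was checked on simulated data. All 10 genes were named, with the 3 of smallest p from each list and cadherins at a mean of at least 1 FPKM. CTNNB1, CTNNA1, ESRP1, OCLN, KRT8, KRT19 and TWIST2 were named for their role or level, after their values were seen. KRT18 and ELF3 were named, also after, for the smallest p among epithelial genes in loci with several names. The genes and lists were chosen with earlier results of these data known.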

Additional observations from a re-analysis of the deposited data

How the results depend on the processing

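Over all loci 3 were called. Robust variances, a pseudocount of 0.1 and a replicate block each gave 5, dropping the variance trend gave 6, testing every locus above 0 gave 1, and leaving out 1 library gave 18 to 37. None of the 8 tested genes of the group was called under any of these settings or under the pseudocount of 0.5, the filter at 5 FPKM and the 3 other scalings, where the filter at 5 FPKM left out CDH16. The direction reversed for CDH6 without control vector replicate 1 (0.24, in a leave-one-out range of -0.60 to 0.24), for ZEB1 without PRDM16 replicate 1 (-0.23, in a range of -0.23 to 0.26) and for SNAI1 without control vector replicate 2 (-0.066, in a range of -0.066 to 0.40), and the cause was not tested. CDH2, CDH16, EPCAM, ZEB2 and SNAI2 kept a change below 0 under each setting run. With both PRDM16 libraries below both control vector libraries, their sign could not turn when 1 library was left out. Nor could it turn under the settings of variance, block, filter or pseudocount. Only the 3 other scalings could have turned it. The count of tested genes lower in both PRDM16 libraries was 5, and 5 to 6 with 1 library left out. The share of all loci was then 27.7% to 40.8%, and this alternative was chosen after seeing the data. A gene lower in both stays so when 1 library is left out, so the count could not fall below 5. Replicate numbers are only numbers: with 2 groups of 2, the deviations of same-numbered libraries had a correlation of -0.06 across loci. Count-based tools were not run, as the file holds no counts.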

Other observations

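The loci whose profile over the 4 libraries lay nearest to that of CDH16, the tested gene with the smallest p, were OSBPL5, CEBPD and ABCA1, out of 7906 single-name loci with a mean of at least 5 FPKM. Likeness was the Euclidean distance between mean-centred log2(FPKM + 1), which was 0.0230 for OSBPL5, 0.0568 for CEBPD and 0.0622 for ABCA1. The pseudocount of 1 shrinks the profile of CDH16, at a mean of 1.34 FPKM, more than those of these loci. On FPKM itself the ratio of CDH16, 1.79-fold, was larger than theirs, so the likeness holds on this scale only. OSBPL5, which encodes an oxysterol-binding protein, was at 12.1 and 13.8 FPKM in control vector libraries and 9.32 and 8.99 FPKM with PRDM16. CEBPD, a transcription factor gene, was at 19.1 and 21.3 against 15.0 and 14.8 FPKM, and the cholesterol exporter gene ABCA1 at 28.4 and 29.8 against 21.4 and 20.3 FPKM. With 4 libraries many loci share such a profile, and no test was made.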
